A study of Mus musculus with 6 samples.

Results

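The receptors for the colony-stimulating factors (CSFs) and their ligands, 9 genes of the 55487 in the count table, were examined in mouse macrophages grown in culture. The 9 genes were taken by symbol, with earlier results of these data known. They comprise 5 receptor genes (Csf1r, Csf2ra, Csf2rb, Csf2rb2 and Csf3r) and 4 ligand genes (Csf1, Il34, Csf2 and Csf3). The study sorted cells called TpMos and mature Ly6Chi monocytes from bone marrow, kept them for 7 days in medium with added CSF-1, and sequenced the RNA of the macrophages that grew. There were 3 libraries of TpMo-derived and 3 of Ly6Chi-derived macrophages. The mouse strain and age are not given in the labels used here. The labels speak of indicated CSF-1 concentrations without giving that of any library, so whether the groups had the same dose cannot be told. No label says that libraries of a group came from separate mice or cultures. The p-values below therefore measure the spread between these libraries, which may be technical.

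Each CSF acts through a receptor on the surface of blood cells. The CSF-1 receptor, encoded by Csf1r, is a receptor tyrosine kinase that binds CSF-1 and IL-34 and maintains monocytes and macrophages. The GM-CSF receptor pairs a ligand-specific alpha chain (Csf2ra) with a shared beta chain (Csf2rb) that also serves the receptors for IL-3 and IL-5. Mice carry an additional beta chain gene, Csf2rb2, whose product works with IL-3 only. Csf3r encodes the receptor for G-CSF, best known from neutrophils.

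The libraries held 23765773 to 33042094 counts on genes. All 8 listed macrophage marker genes were detected, with summed levels of 31859 to 33660 CPM (counts scaled to the size of the library) in TpMo-derived and 27491 to 30153 CPM in Ly6Chi-derived libraries. Most of that sum came from Lyz2, with a mean of 24457 CPM, which was not called (edgeR, adjusted p = 0.13). Of the 8, 4 were higher, 1 lower and 3 not called in TpMo-derived macrophages, against 6.54% higher and 5.79% lower of all genes tested. The 7 fibroblast markers, among them Col1a1 and Pdgfra, had 0 counts in every library. Of the 7 T and NK cell markers only Klrb1c had counts. Neutrophil markers summed to 28.7 to 35.8 CPM in TpMo-derived and 59.0 to 64.9 CPM in Ly6Chi-derived libraries, most of it from the collagenase gene Mmp8, with Ly6g, Mpo, Retnlg and Prtn3 at 0. The 5 endothelial markers summed to 29.0 to 32.6 CPM in TpMo-derived and 7.58 to 24.8 CPM in Ly6Chi-derived libraries, nearly all from Kdr, with Tek and Emcn at 0. Of these, Kdr stood at 30.0 (29.97) against 14.7 CPM (edgeR, adjusted p = 0.0878, not called). Pecam1 was very low, at 1.17, 0.780 and 0.694 CPM in TpMo-derived and 0, 0 and 0.0622 CPM in Ly6Chi-derived replicates 1 to 3. It passed the filter on low counts only through the TpMo-derived libraries, where it was the higher. Its call as higher (log2 fold change 5.06 ± 1.35 SE, edgeR, adjusted p = 0.0356) is therefore no independent sign of a difference. The part of these markers in the results below was not tested. In bulk RNA, fewer cells of a type and less RNA per cell cannot be told apart.

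TpMo-derived macrophages carried more Csf1r transcript and less of both GM-CSF receptor chains, Csf2ra and Csf2rb, than Ly6Chi-derived macrophages. All 5 receptor genes and Csf1 passed the filter on low counts, and Il34, Csf2 and Csf3 did not. Of the 6 genes tested, 1 was higher (Csf1r) and 2 were lower (Csf2ra and Csf2rb) in TpMo-derived macrophages by the quasi-likelihood test of edgeR at a Benjamini-Hochberg adjusted p under 0.05. In the same fit 12.3% of all 13140 genes tested passed, 6.54% as higher and 5.79% as lower. The 3 libraries of a group did not overlap those of the other for 5 of the 6 genes, against 30.5% of all genes tested. The 3 changes were between 1.34-fold and 1.51-fold in size, and Csf1r, the most abundant of the 9, had the smallest error.

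**Figure D1:**
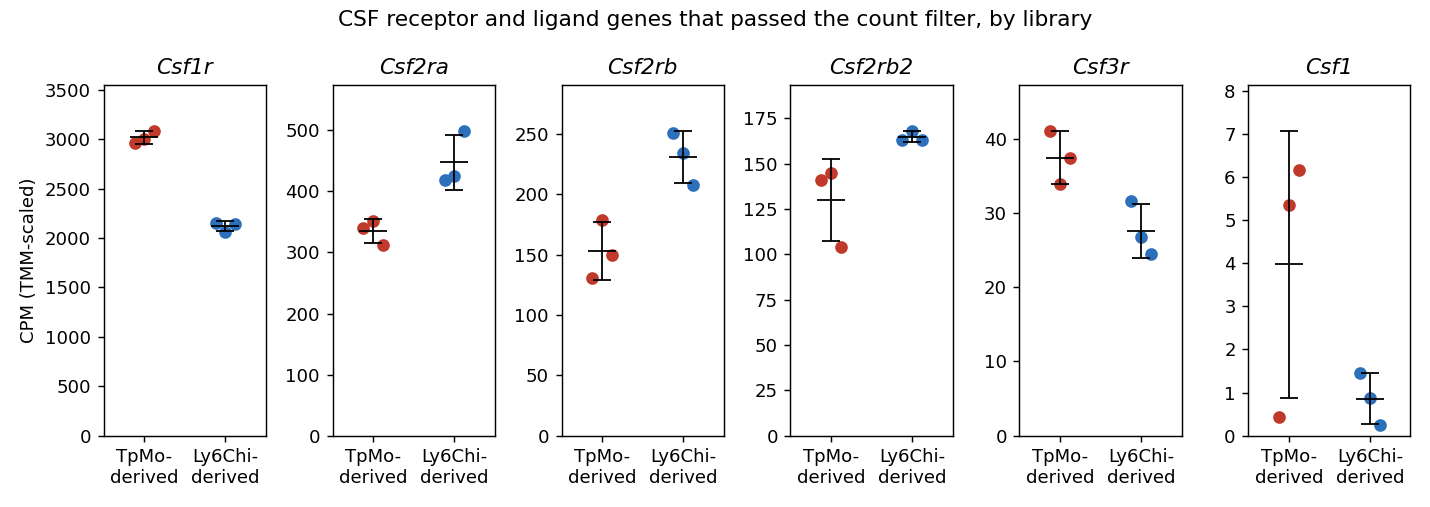
Level of each tested CSF gene in every library, in CPM scaled by TMM, with the axis starting at 0 in each panel. Dots are libraries and black bars the mean and SD of 3 libraries. Csf1r averages 3017 CPM in TpMo-derived and 2119 CPM in Ly6Chi-derived libraries, and only in the Csf1 panel do the groups overlap.

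Csf1r (ENSMUSG00000024621.16, chromosome 18, 61100598 to 61132149, plus strand, GRCm38) is a protein-coding gene. Its level was 2961, 3006 and 3085 CPM in TpMo-derived replicates 1, 2 and 3 and 2155, 2065 and 2137 CPM in Ly6Chi-derived replicates 1, 2 and 3. The lowest TpMo-derived library thus lay above the highest Ly6Chi-derived one, and within each group the libraries were close together. Its log2 fold change was 0.51 ± 0.05 (SE), with a 95% interval of 0.41 to 0.61, which is 1.42-fold higher in TpMo-derived macrophages (edgeR, adjusted p = 8.33e-05). Among all genes tested, its p ranked 81. Per length, Csf1r stood at 1711 to 1741 TPM (the level per transcript length) in TpMo-derived and at 1225 to 1328 TPM in Ly6Chi-derived libraries, which placed it between rank 57 and rank 82 of all genes in the 6 libraries. It took 0.209 to 0.299% of all counts of a library. Of its 5774 exon bases, 873 also belong to exons of Hmgxb3, a neighbour on the opposite strand. Reads on that stretch were not counted for either gene under the counting program's defaults, so the level of Csf1r may be understated in all libraries. Hmgxb3 itself had 977 to 1125 counts per library, with the groups overlapping.

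The alpha chain of the GM-CSF receptor moved the other way. Csf2ra (ENSMUSG00000059326.7, chromosome 19, 61223957 to 61228429, minus strand) stood at 341, 351 and 312 CPM in TpMo-derived replicates 1 to 3 and at 419, 425 and 500 CPM (499.6) in Ly6Chi-derived replicates 1 to 3. Every Ly6Chi-derived library was above every TpMo-derived one, and Ly6Chi-derived replicate 3 was the highest. On the log2 scale the change was -0.42 ± 0.08 (SE, 95% interval -0.60 to -0.23), or 1.34-fold lower in TpMo-derived macrophages (edgeR, adjusted p = 0.00873). Without TpMo-derived replicate 3 the adjusted p was 0.0469, and in no leave-one-out fit was it above the threshold. Per length, Csf2ra was the second receptor gene of all 6 libraries, at 353 to 409 TPM against 507 to 593 TPM.

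The shared beta chain was lower as well. Csf2rb (ENSMUSG00000071713.6, chromosome 15, 78325752 to 78353847, plus strand) stood at 130 (130.4), 179 and 150 (149.9) CPM in TpMo-derived replicates 1 to 3 and at 251, 235 and 207 CPM in Ly6Chi-derived replicates 1 to 3. The groups did not overlap, though TpMo-derived replicate 2 came near the lowest Ly6Chi-derived library. The log2 fold change was -0.59 ± 0.12 (SE, 95% interval -0.86 to -0.33), or 1.51-fold lower in TpMo-derived macrophages (edgeR, adjusted p = 0.00918). Its neighbour Csf2rb2 (ENSMUSG00000071714.7, chromosome 15, 78282507 to 78305721, minus strand) stood at 141, 145 and 104 CPM against 163, 168 and 163 CPM. Here too the groups did not overlap, and TpMo-derived replicate 3 was the lowest library. Its log2 fold change of -0.34 ± 0.12 (SE, 95% interval -0.61 to -0.08) did not pass (edgeR, adjusted p = 0.103).

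Csf2rb and Csf2rb2 are close copies, so reads can fail to tell them apart. Their longest coding sequences in GENCODE M21, of 2688 and 2634 bases, aligned over 2628 base pairs with 125 mismatches, an identity of 95.2%. Of the 51-base windows, the length of 1 read, in the transcripts of Csf2rb, 873 of 7267 occur exactly in transcripts of Csf2rb2, and the same 873 make up 18.0% of those of Csf2rb2. The stretch below shows how the genes differ. It spans bases 7 to 156 of each coding sequence, read 5′ to 3′ from the start codon, is spliced from 2 exons (chr15:78335213-78336415, plus strand, for Csf2rb and chr15:78297035-78298223, minus strand, for Csf2rb2, GRCm38), and has its 7 differing bases in capitals. It was chosen because its share of differences was closest to that of the whole coding sequence.
Csf2rb: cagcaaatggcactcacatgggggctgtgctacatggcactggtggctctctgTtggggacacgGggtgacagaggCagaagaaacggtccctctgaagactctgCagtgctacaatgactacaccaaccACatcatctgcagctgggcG
Csf2rb2: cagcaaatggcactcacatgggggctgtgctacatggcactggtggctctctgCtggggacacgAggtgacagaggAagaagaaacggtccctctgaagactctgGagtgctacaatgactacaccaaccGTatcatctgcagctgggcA
A read that ends before the first capital matches both genes, whereas a 51-base read further along this stretch meets at least 1 difference. With the counts of both genes summed as 1 row, an alternative added with the values already known, the level was 272, 323 and 254 CPM (271.5, 323.4 and 253.8) in TpMo-derived against 414, 403 and 370 CPM (370.4) in Ly6Chi-derived replicates 1 to 3. The groups stayed apart, and the log2 fold change of the sum was -0.48 ± 0.09 (SE, edgeR, adjusted p = 0.00769). A read assigned to the wrong copy does not change this sum, but reads that fit both copies equally well were left out of it.

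Csf3r (ENSMUSG00000028859.14, chromosome 4, 126024550 to 126044440, plus strand) was the least abundant receptor gene, at 23.1 to 38.0 TPM. Of the 3677 windows of 51 bases in its transcripts, 376 also occur in transcripts of other genes. Reads that map to several places were left out, so its level may be understated in all libraries. Its level was 41.1, 33.9 and 37.4 CPM in TpMo-derived and 31.6, 26.7 and 24.4 CPM in Ly6Chi-derived replicates 1 to 3. The libraries of the groups did not overlap, but the lowest TpMo-derived and the highest Ly6Chi-derived library differed by little. The log2 fold change was 0.44 ± 0.16 (SE, 95% interval 0.09 to 0.80) and did not pass (edgeR, adjusted p = 0.112), whereas the Wald test of DESeq2 placed it just under the threshold (adjusted p = 0.0494). Neutrophils also carry this receptor. Of the 12 neutrophil markers, 8 had counts, and their sum, given above, was mostly Mmp8, at 31.8 against 61.0 (60.97) CPM. Ltf had 0, 58 and 38 counts in TpMo-derived and 4, 0 and 0 in Ly6Chi-derived replicates 1 to 3, and Ngp had 32, 8 and 0 against 0, 5 and 14. S100a8 went the other way, with 2, 8 and 4 against 2, 10 and 26. Elane had 0, 0 and 0 against 0, 0 and 8, and Cxcr2 had 0, 0 and 0 against 0, 2 and 0. S100a9 (0, 0 and 2) and Camp (2, 0 and 0) had counts in TpMo-derived libraries only. The part of neutrophil RNA in the Csf3r values was not tested.

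**Figure D2:**
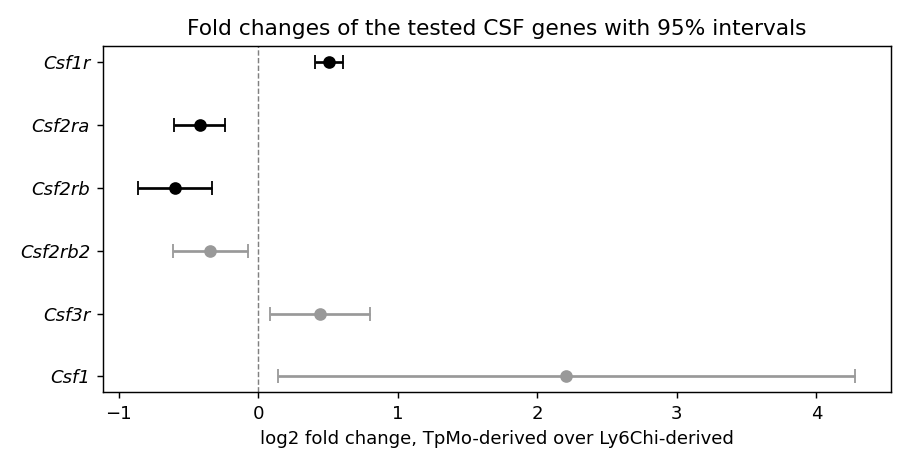
Log2 fold change of each tested CSF gene, TpMo-derived over Ly6Chi-derived macrophages, with its 95% interval from the edgeR fit. Black marks the 3 genes past an adjusted p of 0.05 and grey the 3 others. Csf1r lies to the right at 0.51, Csf2ra and Csf2rb to the left at -0.42 and -0.59, and Csf1 has the widest interval.

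Promoter sequence from RefSeq (GRCm38.p6), covering 250 bases before and 50 after the start, was on hand for 5 of the 9 genes, and the 3 receptor genes among them are printed to show their PU.1 letters. PU.1, encoded by Spi1, is the factor that drives many myeloid receptor genes. Capitals mark every match to the letters GAGGAA of a PU.1 core on either strand, and to TTCNNNGAA, the site pattern of STAT factors. The first pattern occurs in 28.3% and the second in 8.30% of 32851 promoters of this length. The other patterns searched on both strands were TTGCNNAA for C/EBP (10.8% of promoters), TGANTCA for AP-1 (7.81%), a pair of GAAA with 2 bases between them for interferon response elements (3.44%), GGGA and TTTCC with 1 base between them for NF-kB (0.411%) and TATAAA for the TATA box (13.6%), and none of these occurs in the 3 printed windows.
Csf2ra, chr19:61228369-61228668, minus strand: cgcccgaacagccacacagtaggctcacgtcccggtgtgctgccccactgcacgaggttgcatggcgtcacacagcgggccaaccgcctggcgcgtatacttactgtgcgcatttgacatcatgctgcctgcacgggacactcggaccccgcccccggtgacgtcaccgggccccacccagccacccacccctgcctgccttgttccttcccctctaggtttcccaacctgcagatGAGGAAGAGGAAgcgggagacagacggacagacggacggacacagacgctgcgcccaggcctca
Csf2rb2, chr15:78305672-78305971, minus strand: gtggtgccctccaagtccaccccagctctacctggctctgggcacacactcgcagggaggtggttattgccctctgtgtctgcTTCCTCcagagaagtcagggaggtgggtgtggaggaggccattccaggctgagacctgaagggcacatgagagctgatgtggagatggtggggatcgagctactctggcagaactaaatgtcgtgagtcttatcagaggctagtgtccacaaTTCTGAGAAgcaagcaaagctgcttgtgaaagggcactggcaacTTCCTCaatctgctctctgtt
Csf3r, chr4:126024409-126024708, plus strand: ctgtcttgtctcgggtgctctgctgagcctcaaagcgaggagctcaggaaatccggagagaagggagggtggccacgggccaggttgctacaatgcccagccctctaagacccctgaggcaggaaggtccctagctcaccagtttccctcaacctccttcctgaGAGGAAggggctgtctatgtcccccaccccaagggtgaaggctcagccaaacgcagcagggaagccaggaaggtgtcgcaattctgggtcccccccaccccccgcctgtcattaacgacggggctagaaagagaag
In Csf2ra the PU.1 letters occur 2 times in direct succession, just before the start. In Csf2rb2 they occur on the opposite strand on both sides of the start, with a STAT pattern between them, and in Csf3r once. The windows of Csf1 and Csf2, not printed, held no PU.1 letters. Csf1 had 1 match to the NF-kB pattern and Csf2 had 1 to that of C/EBP. For Csf1r and Csf2rb no window was on hand. These matches are letters in a window and no measurement of binding. Spi1 itself stood at 434 ± 13.9 CPM in TpMo-derived and 387 ± 31.1 CPM in Ly6Chi-derived libraries (n = 3 each, log2 fold change 0.17) and did not pass (edgeR, adjusted p = 0.183).

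The ligand genes were at very low levels beside their receptors. Csf1 (ENSMUSG00000014599.10, chromosome 3, 107741048 to 107760469, minus strand) had 14, 144 and 142 counts in TpMo-derived and 40, 24 and 8 counts in Ly6Chi-derived replicates 1 to 3. In CPM these were 0.430, 5.35 and 6.16 against 1.45, 0.878 and 0.249. TpMo-derived replicates 2 and 3 were the highest, while TpMo-derived replicate 1 lay among the Ly6Chi-derived libraries, so the groups overlapped. The log2 fold change of 2.21 ± 0.93 (SE, 95% interval 0.14 to 4.27) did not pass (edgeR, adjusted p = 0.174), and the call rests on that library: without TpMo-derived replicate 1 it was 2.74 with an adjusted p of 0.0412.

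Il34, the other ligand of the CSF-1 receptor (ENSMUSG00000031750.15, chromosome 8, 110741829 to 110805924, minus strand), had 12 counts in TpMo-derived replicate 1 and 0 in the other 5 libraries. Csf3, which encodes G-CSF (ENSMUSG00000038067.2, chromosome 11, 98701263 to 98703629, plus strand), had 18 counts in TpMo-derived replicate 1 and likewise 0 in the others. Csf2, which encodes GM-CSF (ENSMUSG00000018916.5, chromosome 11, 54247271 to 54249667, minus strand), had 2 counts in TpMo-derived replicate 2 and 0 elsewhere. A count of 0 allows up to 3 counts, or 0.0908 to 0.126 CPM at the depth of these libraries. Il34 and Csf3 were thus seen above that limit in the same single library, and Csf2 in none. Mates were counted singly, so 1 fragment can give 2 counts, and the floor covers counting error only.

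Within each library the receptors kept 1 order per length: Csf1r, Csf2ra, Csf2rb2, Csf2rb and Csf3r. In all but TpMo-derived replicate 1, Csf2rb2 stood above Csf2rb only through the gene lengths used, 4740 against 7277 bases. In those libraries Csf2rb had more counts than Csf2rb2. In Ly6Chi-derived replicate 1 the neighbours Csf2rb2 and Csf2rb were all but equal, at a ratio of Csf2rb over Csf2rb2 of 0.999, and their order there does not exceed the spread between libraries. The balance between Csf1r and the GM-CSF receptor chains differed between the groups. Csf1r exceeded Csf2ra by 4.32, 4.26 and 4.91 times in TpMo-derived replicates 1 to 3 and by 2.56, 2.42 and 2.13 times in Ly6Chi-derived replicates 1 to 3. It exceeded Csf2rb by 28.6, 21.2 and 25.9 times against 10.8, 11.1 and 13.0 times. Both ratios were higher in every TpMo-derived library than in any Ly6Chi-derived one, by 1.90 and 2.16 times between the geometric means. The ratio of Csf1r over Csf3r, from 45.0 to 55.4 against 42.6 to 54.7, overlapped between the groups, as did that of Csf2ra over Csf2rb, from 4.98 to 6.62 against 4.24 to 6.11.

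As a description, 6 of the 10 ratios between receptor genes did not overlap between the groups. The ratios share genes, and 30.5% of all single genes tested did not overlap, a share that was not computed for ratios. In each of the 6 either Csf1r or Csf3r was set against a GM-CSF or IL-3 receptor chain. The exact two-sided permutation test gave p = 0.1 for each of the 6, the smallest value that 3 against 3 libraries allow, and 0.167 after adjustment over the 10. The exact p was 0.7 for Csf1r over Csf3r and 0.4 for Csf2rb over Csf2rb2. A p of this size does not show that a ratio was equal in both groups.

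**Figure D3:**
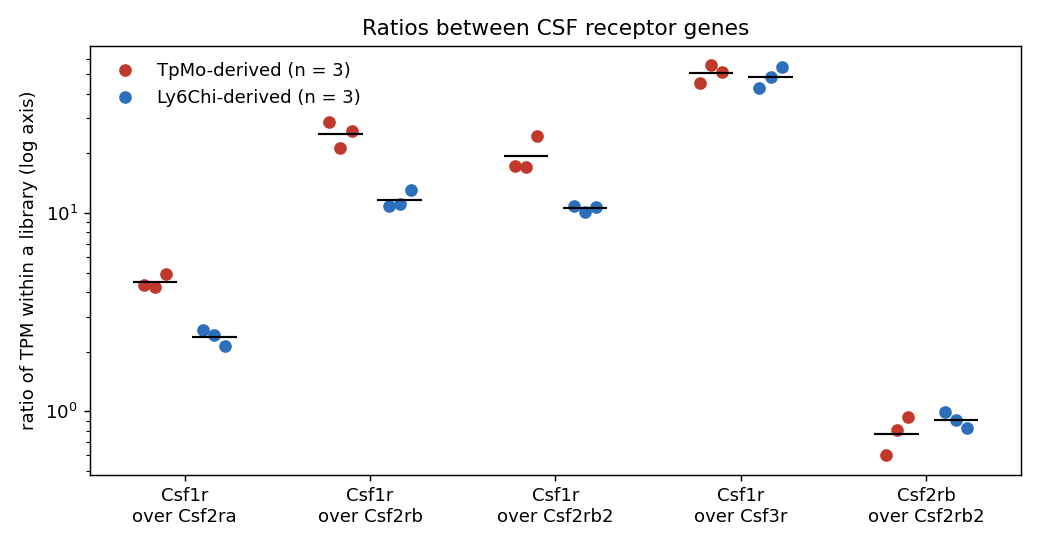
Ratio between receptor genes within each library, from TPM, on a log axis. Dots are libraries and black lines the geometric mean of 3. Csf1r over each of Csf2ra, Csf2rb and Csf2rb2 is higher in all TpMo-derived libraries, whereas Csf1r over Csf3r and Csf2rb over Csf2rb2 overlap between the groups.

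The genes whose pattern over the 6 libraries lay closest to a member were found by the root mean square difference in log2 CPM, each gene centred on its own mean, among 7843 tested genes whose mean reached 10 CPM (7844 for Csf1). For Csf1r the closest were Maf, a transcription factor of macrophages, with a difference of 0.03, Inppl1, an inositol phosphatase, with 0.03, and the chaperone Hsp90ab1, with 0.03. For Csf2ra they were Adap1, Mbd1 and Jade1 (0.03, 0.04 and 0.05), and for Csf2rb the intermediate filament gene Vim, the lamin B receptor Lbr and the calpain inhibitor Cast (0.06, 0.07 and 0.07). For Csf3r the closest were Elac2, Bud13 and Cblb (0.04, 0.04 and 0.05). For Csf2rb2 they were Aktip, Rassf5 and Zfp709 (0.05, 0.05 and 0.07). The closest to Csf1 was Gbp7, at 1.00. Csf1 itself averaged 3.98 CPM in TpMo-derived and 0.860 CPM in Ly6Chi-derived libraries, so genes at its own level were not among those compared. Whether its pattern is unlike theirs cannot be told. These are likenesses over 6 libraries that share 2 groups, given as a description.

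Genes around the receptors were described by lists, without a test of the lists. All of the lists were chosen with earlier results of these data known. Of 18 genes that act next to the CSF-1 receptor, 1 was higher and 1 lower in TpMo-derived macrophages, against 12.3% of all genes tested, a share near that of the list. Its median log2 fold change was 0.07, against 0.0054 over all genes tested. The lower gene was the Ras activator Sos1, at 6.38, 8.91 and 8.85 CPM against 15.1, 17.2 and 16.4 CPM (log2 fold change -1.02 ± 0.23 SE, edgeR, adjusted p = 0.0166). The call of Sos1 was lost, and the count of 2 called became 1, when TpMo-derived replicate 1, or else Ly6Chi-derived replicate 3, was left out. The count was 4 with DESeq2 or with 5 CPM in 3 libraries required. Plcg2, a phospholipase gene among the most abundant of the list, measured 216 against 260 CPM (216.3 and 259.6), which missed the threshold (adjusted p = 0.11).

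Of 8 genes whose products inhibit the receptor's signal or shed the receptor, 4 were higher and 0 lower, against 6.54% higher and 5.79% lower of all genes tested, and the median log2 fold change was 0.44. The phosphatase gene Ptpn6, which encodes SHP-1, stood at 471, 527 and 502 CPM in TpMo-derived against 309, 311 and 287 CPM in Ly6Chi-derived replicates 1 to 3 (log2 fold change 0.73 ± 0.07 SE, edgeR, adjusted p = 1.04e-04). The adaptor genes Dok2 and Dok1, whose products restrain Ras signalling, had log2 fold changes of 0.76 and 0.48. Adam17, the protease that cleaves the CSF-1 receptor from the cell surface, stood at 378, 356 and 366 CPM against 298, 251 and 285 CPM (0.40 ± 0.08 SE, adjusted p = 0.00744). Over the whole list, called or not, the groups did not overlap for 6 of the 8 genes, against 30.5% of all genes tested. Inpp5d, the phosphatase SHIP-1, was not called at 359 against 362 CPM (adjusted p = 0.952). The count of 4 called was 3 to 5 without 1 library and 4 to 6 under the other settings tried. It was 3 without TpMo-derived replicate 3 and without Ly6Chi-derived replicate 2 or 3. The make-up of the list is a choice. Cbl and Cblb were placed in the list above instead, and neither was called (edgeR, adjusted p = 0.256 and 0.0711).

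Of 10 transcription factors known to act on Csf1r, 9 were tested, 2 were higher and 0 lower, against 6.54% and 5.79% of all genes tested. Fos, at 266 ± 43.2 CPM against 130 ± 35.4 CPM (130.3, n = 3 each), and Tfe3, at 224 ± 7.82 CPM against 158 ± 16.3 CPM, passed (edgeR, adjusted p = 0.00494 and 0.00506). Jun, at 220 against 208 CPM (220.3 and 208.5), was not called (adjusted p = 0.718). Of 12 genes of JAK-STAT signalling behind the GM-CSF and G-CSF receptors, 11 were tested and edgeR called 0, against 12.3% of all genes tested, with 1 gene at an unadjusted p under 0.05 and 0 called by DESeq2. In so short a list, 0 calls lies near that share. Only 8 of the 12 were tested when 5 CPM in 3 libraries was required, so several were at low levels. A gene not called is not shown to be equal in both groups. Jak1 and Bcl2l1, the most abundant of the list, had log2 fold changes of -0.09 and 0.15. Of 12 target genes of ERK, the kinase downstream of the CSF-1 receptor, 9 were tested and only Egr1 passed, as higher, where 6.54% of all genes tested were higher (log2 fold change 1.74, adjusted p = 0.0105), a call lost when no count filter was used and when Ly6Chi-derived replicate 1 or 2 was left out. The feedback phosphatase Dusp6 stood at 288 against 284 CPM and the cyclin gene Ccnd1 at 861 against 882 CPM, and neither passed (adjusted p = 0.947 and 0.788).

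Among partners of the common beta chain, Il3ra, the alpha chain of the IL-3 receptor, stood at 19.7 ± 3.92 CPM against 13.6 ± 2.01 CPM (n = 3 each) and did not pass (edgeR, adjusted p = 0.162), while Il5ra, Il3 and Il5 had 0 counts in all libraries. Of other receptors named for IL-34, Ptprz1 had 0 counts, and the proteoglycan gene Sdc1 was lower, at 25.4, 22.8 and 29.4 CPM against 48.8, 52.3 and 50.4 CPM (log2 fold change -0.97 ± 0.15 SE, edgeR, adjusted p = 0.00195). Trem2, also named for IL-34, measured 748 against 746 CPM (adjusted p = 0.986).

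The lists of genes that differ between macrophages grown in GM-CSF and in CSF-1 were drawn up from background knowledge, with earlier results of these data in view, and are a description only. Of 13 genes listed as higher with GM-CSF, 8 were tested, 3 were lower and 1 was higher in TpMo-derived macrophages, against 5.79% and 6.54% of all genes tested. Lower were the elastase Mmp12, the integrin Itgax and the transcription factor Bhlhe40, at 14.4, 25.1 and 14.8 CPM against 87.1, 67.2 and 78.6 CPM (log2 fold change -2.10 ± 0.22 SE, edgeR, adjusted p = 2.24e-04). Higher was Pparg, the lipid-sensing receptor that GM-CSF induces in alveolar macrophages, at 42.5, 42.0 and 32.4 CPM (42.0 being 41.95) against 19.6, 29.4 and 24.4 CPM (0.67 ± 0.19 SE, adjusted p = 0.0452). That call was lost with scaling by library totals and in each leave-one-out fit except the one that dropped TpMo-derived replicate 3. Of 12 genes listed as higher with CSF-1, all tested, 9 were higher and 2 lower, against the same 6.54% and 5.79%, with a median log2 fold change of 1.27. Among the lower was the chemokine Ccl2, at 196, 170 (170.3) and 270 (269.98) CPM against 346, 401 and 376 CPM (log2 fold change -0.82 ± 0.15 SE, edgeR, adjusted p = 0.00502). The count of lower genes was 1 when TpMo-derived replicate 1 or 3, or Ly6Chi-derived replicate 2 or 3, was dropped.

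**Figure D4:**
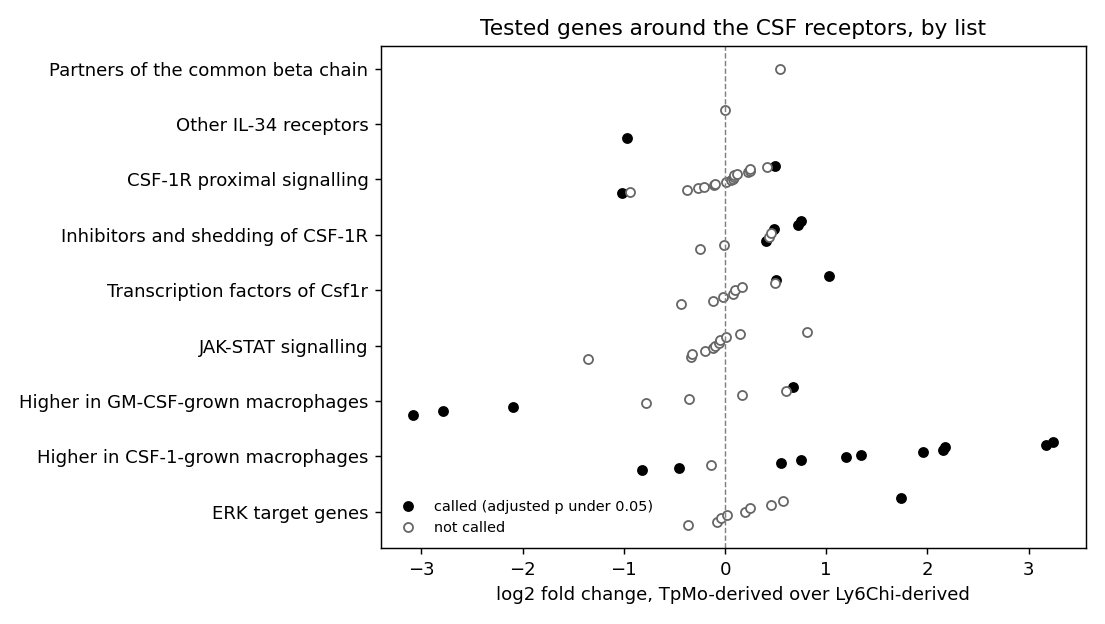
Log2 fold change of every tested gene of the lists around the CSF receptors, TpMo-derived over Ly6Chi-derived macrophages, 1 dot per gene. Filled dots passed an adjusted p of 0.05 and open dots did not. Of all genes tested, 12.3% passed. The inhibitor list holds 4 filled dots of 8, all to the right of 0. The JAK-STAT list holds 0 of 11, and the list of partners of the common beta chain 0 of 1.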

How the data were processed

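RNA was measured by SMART-seq v2 in 6 libraries, 3 per group, and 1 table of raw counts per gene was deposited by the authors. Per the file header, featureCounts 1.6.3 counted reads on exons of GENCODE M22 without options for pairs, strand or multi-mapped reads. By that program's defaults, mates were counted singly, strand was ignored, and reads mapped to several places or genes were left out. STAR and GRCm38 come from the submitters' processing notes, with no version named there. Symbols came from GENCODE M21, which matched 55394 of 55487 gene identifiers. Replicates were numbered in accession order.

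Genes passed filterByExpr of edgeR 4.0.16 in R 4.3.3 (minimum count 10, minimum total 15), were scaled by TMM and tested with the robust quasi-likelihood test, with Benjamini-Hochberg adjustment over 13140 genes. Each standard error is the log2 fold change over the root of F, and 95% intervals use the t distribution. CPM are TMM-scaled, except marker sums and floors, which use library totals. TPM were computed from counts and the gene lengths deposited by the authors, which cover the merged exons of all isoforms. DESeq2 1.42.0 and limma 3.58.1 were alternatives. The scripts were tested on simulated data. Within groups, counts of paired libraries differed by a chi-square per degree of freedom of 20.6 to 33.8, so none was a copy. The members and lists were chosen with earlier results of these data known. From each list, up to 4 changed genes with the smallest p and the 2 most abundant could be named, so other members are given by counts. Added after their values were seen were Ccl2, Pecam1, Cbl, Cblb and the neutrophil markers Ltf, Ngp, S100a8, S100a9, Elane, Camp and Cxcr2. Some genes of the lists enter the counts but are not reported by name here.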

Additional observations from a re-analysis of the deposited data

How the results depend on the processing

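Csf1r, Csf2ra and Csf2rb remained called in the same direction under every scaling, filter and tool tried and without any single library, but not against a 1.5-fold change. With 5 CPM in 3 libraries required, Csf1 was not tested. The log2 fold change without 1 library ranged from 0.48 to 0.52 for Csf1r, from -0.47 to -0.34 for Csf2ra and from -0.72 to -0.49 for Csf2rb (highest adjusted p 0.00135, 0.0469 and 0.0469). For genes not called, it ranged from -0.43 to -0.21 for Csf2rb2, from 0.36 to 0.54 for Csf3r and from 1.74 to 2.81 for Csf1. Csf2rb2 passed without a count filter (-0.35, adjusted p = 0.0384) and Csf3r with DESeq2 (0.44, adjusted p = 0.0494). The count of CSF genes called was 3 to 4 without 1 library, and 0 in the edgeR test against a 1.5-fold change, with 1 at an unadjusted p under 0.05. Over all genes the count of 1620 became 785 at an adjusted p under 0.01, 317 against a 1.5-fold change, and 976 to 1492 without 1 library (1074 with TpMo-derived replicate 3 left out, and 1058, 976 and 1062 with Ly6Chi-derived replicate 1, 2 or 3 left out). Scaling by library totals moved the share of higher calls from 53.0% to 45.0%. Of 78 tested genes of the pathway lists, 25 were called, against 12.3% of all genes tested, and 21 to 25 were called without 1 library. Of the 25, 11 came from the list of genes higher with CSF-1, which was drawn up with earlier results of these data in view. Gene length cancels when receptor ratios are compared between groups, so counts without length gave the same differences by construction. Without 1 library, the log2 difference between groups ranged from 0.85 to 0.98 for Csf1r over Csf2ra. It ranged from 1.02 to 1.23 for Csf1r over Csf2rb and from -0.03 to 0.15 for Csf1r over Csf3r, whose sign thus changed. The ligand genes are limited by depth. No paired analysis was possible because the labels give no replicate numbers.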

Other observations

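Several low-count genes of the lists were seen in few libraries, and they are named here after their values were seen. Ccl22, a chemokine, had 52 counts in TpMo-derived replicate 1, 10 in Ly6Chi-derived replicate 2 and 0 in the other 4 libraries. Irf4, a transcription factor that GM-CSF can induce, had 52 counts in TpMo-derived replicate 1, 12 in Ly6Chi-derived replicate 2, 2 in Ly6Chi-derived replicate 1 and 0 elsewhere. TpMo-derived replicate 1 is also the library that held all counts of Il34 and Csf3 and the fewest Csf1 counts of its group.

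Cebpb, a C/EBP factor gene of the list of factors acting on Csf1r, had 4, 4 and 4 counts in TpMo-derived and 2, 4 and 4 counts in Ly6Chi-derived libraries and was not tested, although Csf1r had 56413 to 96454 counts per library. Of the 1504 exon bases of Cebpb, 20.7% also belong to exons of Tmem189.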
